A study of Rattus norvegicus with 6 samples.

Results

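The immediate early response genes were examined as a group of 10 genes, Fos, Jun, Junb, Jund, Egr1, Atf3, Myc, Nr4a1, Ier2 and Btg2. All probe sets annotated with 1 of these symbols alone were taken, dim ones included, with no threshold on any measured value. This gave 13 of the 15923 probe sets on the array, for 9 of the 10 genes. Btg2 had none and was not analysed here. The samples were tibialis anterior muscles of both legs of 3 male Wistar rats, numbered 4, 5 and 6, with an age given as 8 weeks. With the delay and survival given next, this cannot be the age at which the muscles were taken. In each animal the peroneal nerve had been cut and sutured to the biceps femoris, both nerve stumps were joined 4 weeks later, and survival was 8 weeks, under ketamine and xylazine anaesthesia. The ipsilateral group is the muscle of the operated side (n = 3), and the contralateral group is the same muscle of the other leg (n = 3), which comes from the same operated and anaesthetised animals and not from intact ones. The labels give the contralateral side as Cont, which was read as that word.

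Immediate early genes are switched on within minutes of a stimulus from factors already present in the cell, without new protein synthesis, and their messengers decay fast. Most encode transcription factors. Fos, Jun, Junb, Jund and Atf3 are leucine zipper proteins that pair with one another on AP-1 and related sites, Egr1 is a zinc finger factor, Nr4a1 an orphan nuclear receptor, Myc a growth-promoting factor, Ier2 a nuclear protein, and Btg2 an antiproliferative co-regulator. Serum response factor with its partners, acting on CArG boxes, and factors of the CREB family, acting on cyclic AMP response elements, are the textbook inducers. In skeletal muscle these genes respond to contraction, stretch and injury, and Nr4a1 is also linked to beta-adrenergic stimulation and glycolytic metabolism.

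The start regions of the members show which of these elements each carries. RefSeq promoters (assembly GRCr8, 250 bases before to 50 bases after the gene start) were at hand for 6 members, and those of Nr4a1, Ier2 and Junb are shown as examples. These 3 were bright enough to be tested and each holds a different element. The same was true of Egr1, whose promoter is not shown. Capitals mark every match to the motifs searched on both strands, which were TGACGTCA (cyclic AMP response element, the same on either strand), TGAGTCA (AP-1 site), TATAAA, the CArG box and TGCGTCA. The last of these was added after the sequences had been seen. No matches overlapped in these 3 promoters. The Nr4a1 region lies at chr7:134259888-134260187, that of Ier2 at chr19:40399123-40399422 and that of Junb at chr19:40080876-40081175, all on the plus strand.

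Nr4a1: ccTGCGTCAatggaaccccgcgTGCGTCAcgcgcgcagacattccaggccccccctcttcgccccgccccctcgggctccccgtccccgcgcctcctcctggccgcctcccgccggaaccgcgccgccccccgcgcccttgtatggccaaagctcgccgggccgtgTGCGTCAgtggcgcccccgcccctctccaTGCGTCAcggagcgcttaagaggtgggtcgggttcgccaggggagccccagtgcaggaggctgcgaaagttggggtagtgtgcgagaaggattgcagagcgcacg

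Ier2: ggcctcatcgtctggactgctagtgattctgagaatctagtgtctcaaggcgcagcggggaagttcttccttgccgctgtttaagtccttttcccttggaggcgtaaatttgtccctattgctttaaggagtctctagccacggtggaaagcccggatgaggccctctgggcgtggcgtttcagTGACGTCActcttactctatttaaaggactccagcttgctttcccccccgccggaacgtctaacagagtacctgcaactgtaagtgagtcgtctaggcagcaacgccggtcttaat

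Junb: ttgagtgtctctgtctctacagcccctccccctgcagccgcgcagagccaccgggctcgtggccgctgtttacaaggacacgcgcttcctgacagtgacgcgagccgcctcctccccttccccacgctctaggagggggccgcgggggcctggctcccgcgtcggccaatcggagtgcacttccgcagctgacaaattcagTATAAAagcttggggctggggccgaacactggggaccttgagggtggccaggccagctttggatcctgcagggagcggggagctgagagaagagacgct

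Nr4a1 had 4 copies of TGCGTCA, starting at positions -248, -228, -84 and -55 from the gene start. Of 33469 promoters of this length, 1.9% had at least 1 copy and 1 promoter, that of Nr4a1, had 4. This motif was chosen after the sequences had been seen, so its rarity is a description and not a test. Ier2 had 1 cyclic AMP response element, at -66, as did Jund at -221 and Btg2 at -201, against 1.83% of all promoters. Junb had 1 TATAAA at -49, an element found in 14.2% of promoters. Egr1 had 2 CArG boxes, at -105 and -83, where 1.64% of promoters had at least 1 and 0.0209% had 2 or more. None of the 6 promoters held TGAGTCA, which 4.63% of all promoters held. A match describes the letters in this window and is not evidence of a bound factor.

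The question was whether the formerly denervated muscle differed from the other leg's muscle of the same animal. Egr1 and the brighter Fos probe set read lower ipsilaterally in each animal without overlap between the groups. The dimmer Fos probe set, below the filter, had both signs among the animals. Nr4a1 read lower in each animal with overlap, and Junb read slightly higher. Atf3 read more than 2-fold higher in animals 5 and 6 and slightly lower in animal 4. Each of the 3 Jun probe sets had both signs among the animals, and Jund and Myc were too dim to be tested. No member passed the adjusted threshold, so these are descriptions of measured values. Values are array intensities on a linear scale, given as mean ± SD. Differences are on the scale of log2(intensity + 15.8), which understates those of dim probe sets, as ipsilateral minus contralateral with the standard error (SE) from limma's paired fit over 3 animals. Probe sets with a mean below an intensity of about 42.4 on that scale were not tested, which left 9 of the 13 members and 9519 probe sets in all.

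**Figure D1:**
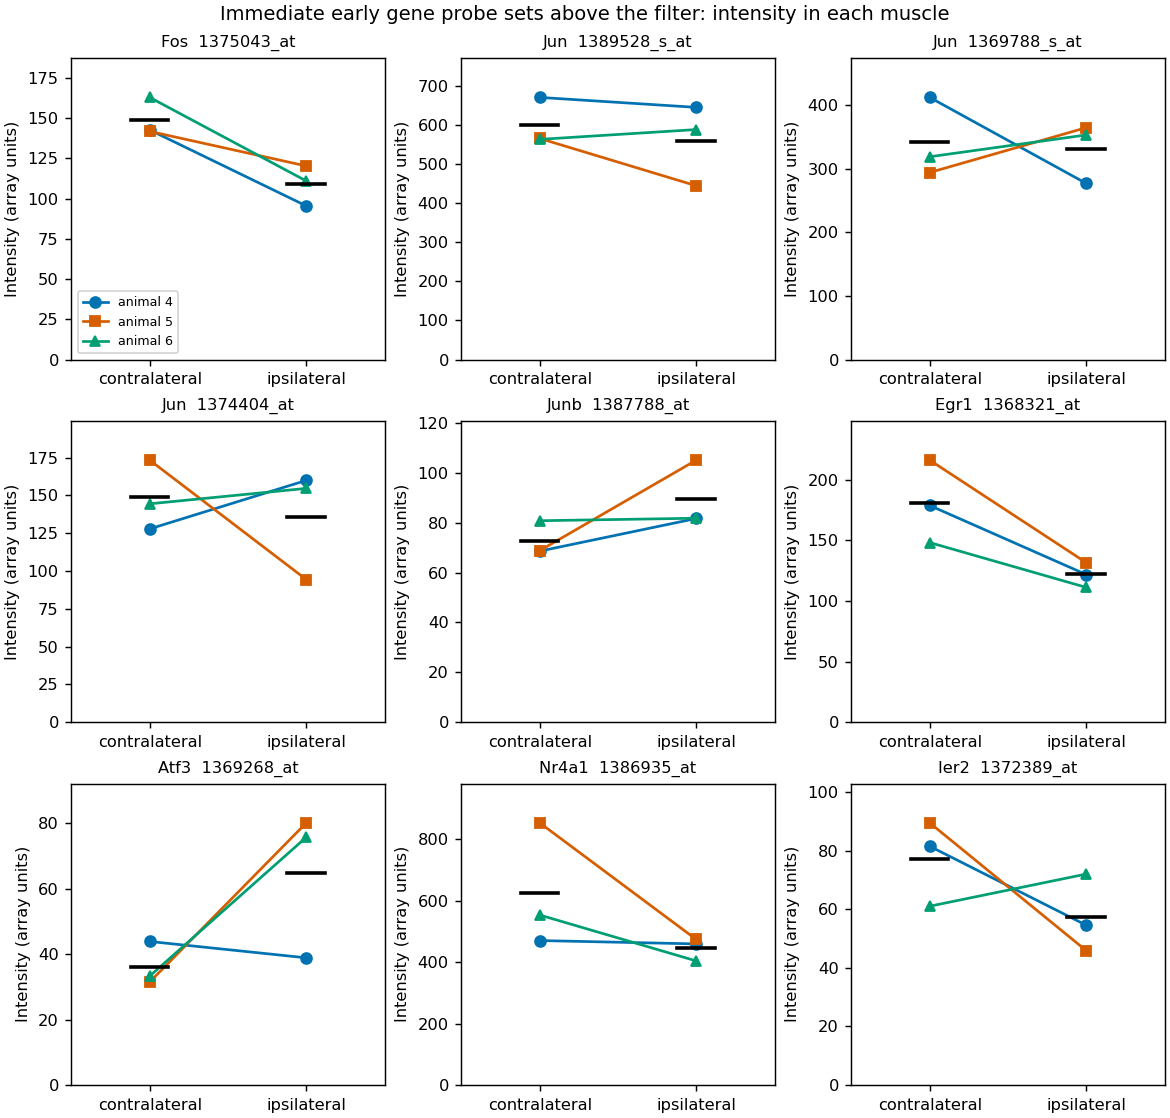
Intensity (array units, linear axis from 0) of the 9 member probe sets above the filter in the contralateral and ipsilateral muscle, 1 line per animal, with black bars at the group means. The lines of Fos (1375043_at) and Egr1 slope down in all 3 animals, whereas those of Atf3 slope up in animals 5 and 6 only.

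Egr1, the zinc finger factor, had intensities of 179, 216 and 148 in the contralateral muscles of animals 4, 5 and 6, and of 122, 132 and 111 in the ipsilateral ones. All 3 ipsilateral values lay below all 3 contralateral values. The group levels were 181 ± 34.1 and 122 ± 10.2, a ratio of 0.671. The log2 difference was -0.51 (SE 0.151, 95% interval -0.85 to -0.17), made of -0.50, -0.65 and -0.37 in animals 4, 5 and 6. Its p ranked 130 among all tested probe sets in limma's fit, first of the members, with a Benjamini-Hochberg adjusted p of 0.545. Over its 11 alternatives, animals left out included, the difference ran from -0.58 to -0.43.

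Fos, the AP-1 partner of the Jun proteins, was represented by a pair of probe sets. The brighter, 1375043_at, read 143, 142 and 163 contralaterally and 95.4, 120 and 111 ipsilaterally in animals 4, 5 and 6. Here too every ipsilateral value was below every contralateral one, and the gap was smallest in animal 5. The levels were 149 ± 11.9 and 109 ± 12.5, and the log2 difference was -0.41 (SE 0.152, 95% interval -0.75 to -0.064; limma adjusted p = 0.73), and -0.50 to -0.34 over the 11 alternatives. The dimmer probe set, 1371283_at, lay below the filter and read 44.9, 8.1 and 50.9 contralaterally and 40.6, 9.6 and 11.3 ipsilaterally. It differed by -0.11, 0.088 and -1.30 in animals 4, 5 and 6, so that only its animal 6 value shows a large difference and animal 5 has the opposite sign from the brighter probe set.

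Nr4a1, the orphan nuclear receptor with the 4 TGCGTCA copies shown above, read 470, 854 and 554 contralaterally and 459, 474 and 404 ipsilaterally. The contralateral muscle of animal 5 was the highest of the 6, and the groups overlapped because ipsilateral 5 lay just above contralateral 4. The levels were 626 ± 202 and 446 ± 36.9, so the spread among contralateral muscles was larger than the gap between the means. The log2 difference was -0.43 (SE 0.179, 95% interval -0.84 to -0.032; limma adjusted p = 0.77), made of only -0.033 in animal 4 but -0.83 and -0.44 in animals 5 and 6. Without animal 5 it was -0.24 and without animal 4 it was -0.63.

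Ier2, whose promoter carries a cyclic AMP response element, read 81.6, 89.6 and 61.1 contralaterally and 54.6, 45.9 and 72.1 ipsilaterally. It was lower in animals 4 and 5 and higher in animal 6, and the groups overlapped. The levels were 77.4 ± 14.7 and 57.5 ± 13.3, with a log2 difference of -0.35 (SE 0.203, 95% interval -0.80 to 0.11; limma adjusted p = 0.796). It was -0.14 without animal 5 and -0.62 without animal 6.

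Junb, an AP-1 subunit often described as restraining Jun, was the 1 member higher in all 3 animals. It read 68.6, 68.8 and 80.8 contralaterally and 81.7, 105 and 81.8 ipsilaterally. The groups did not overlap, but by a margin of less than 1 intensity unit, and the direction in animal 6 was lost after quantile normalization and after shifting the arrays to a common median. The levels were 72.7 ± 6.99 and 89.5 ± 13.5, and the log2 difference was 0.25 (SE 0.164, 95% interval -0.12 to 0.61; limma adjusted p = 0.83), and it was 0.11 without animal 5.

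Jun, the founding AP-1 subunit, had 3 probe sets, and they disagreed in animals 4 and 5. The brightest, 1389528_s_at, read 671, 566 and 563 contralaterally and 645, 445 and 589 ipsilaterally, a log2 difference of -0.11 (SE 0.153, 95% interval -0.45 to 0.23). The probe set 1369788_s_at read 413, 294 and 319 against 277, 365 and 353, a difference of -0.037 (SE 0.189), and 1374404_at read 128, 173 and 145 against 160, 94.4 and 155, a difference of -0.13 (SE 0.21). The groups overlapped for each. In animal 4 the 3 probe sets gave -0.055, -0.55 and 0.29, and in animal 5 they gave -0.34, 0.30 and -0.78, so that neither animal had a single sign for this gene. In animal 6 all 3 were slightly higher ipsilaterally, by 0.061, 0.14 and 0.089. Their adjusted p in limma's fit ran from 0.923 to 0.981, and their intervals, which reached -0.60 and 0.39 at the widest, do not show that Jun was alike in both muscles. Jund, the AP-1 subunit usually described as constitutive, read between 13.9 and 26.2 with 1375768_at and between 2.5 and 9.3 with 1387762_s_at, below the filter on all 6 arrays. Their log2 differences were -0.14 (SE 0.173) and -0.15 (SE 0.119). Myc was also below it, at 31.2 ± 3.07 contralaterally and 34.3 ± 7.64 ipsilaterally, a difference of 0.083 (SE 0.17). These 3 probe sets were outside the test, each had both signs among the animals, and the pseudocount shrinks differences at such intensities.

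Atf3, a stress-inducible repressor and AP-1 relative that is also known as a marker of injured neurons, had the largest difference of the members. It read 43.9, 31.5 and 33.3 contralaterally and 38.9, 80.2 and 75.8 ipsilaterally in animals 4, 5 and 6. Animals 5 and 6 were alike, with ipsilateral over contralateral ratios of 2.55 and 2.28, while animal 4 had a ratio of 0.886, which made the groups overlap. The levels were 36.2 ± 6.7 and 65.0 ± 22.7. The contralateral level lies below the intensity of the filter, so this probe set was tested by virtue of its ipsilateral values. The log2 difference was 0.60 (SE 0.234, 95% interval 0.072 to 1.12; limma adjusted p = 0.74), with -0.13, 1.02 and 0.90 in the 3 animals. The value rests on which animals are included. It was 0.96 without animal 4, where limma's adjusted p was 0.032, but 0.39 without animal 5 and 0.45 without animal 6, with adjusted p of 1.0 and 0.985. With 2 pairs such a fit has 1 residual degree of freedom and takes its variance largely from the prior, as the 3-pair fit also does with 2.

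**Figure D2:**
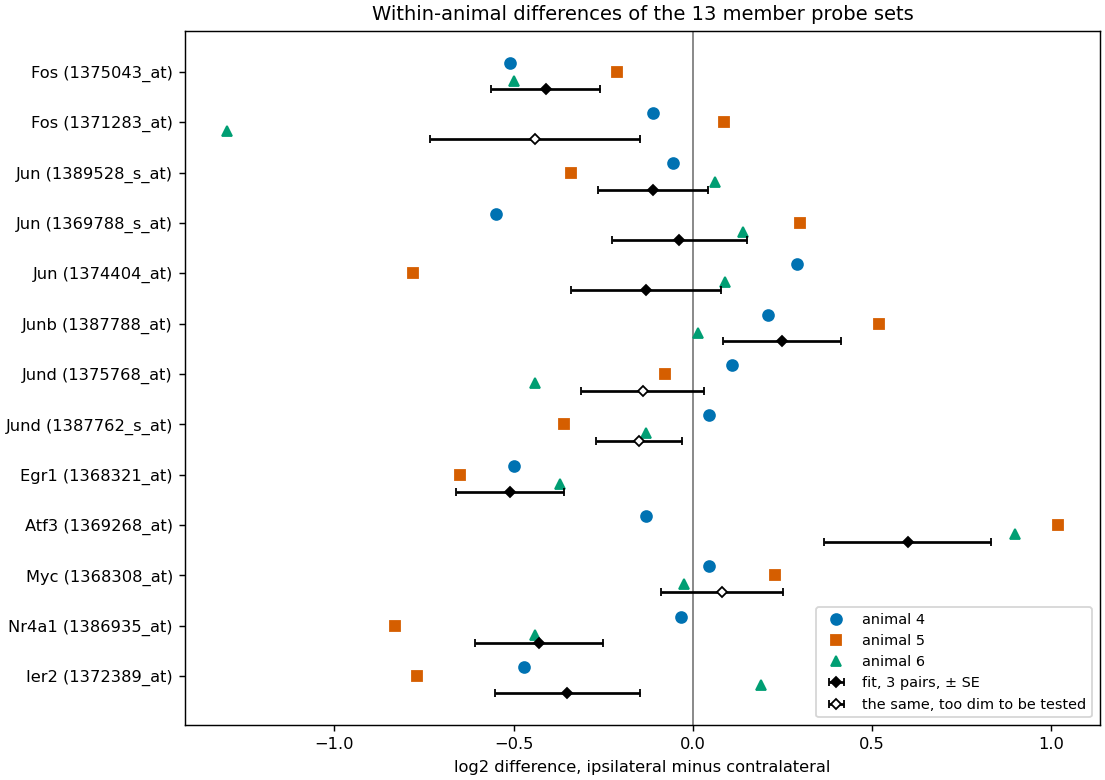
Log2 difference, ipsilateral minus contralateral, of all 13 member probe sets, with 1 coloured symbol per animal and a diamond with SE for the fit over 3 pairs (open where too dim to be tested). Egr1 and the brighter Fos probe set lie left of 0 in all 3 animals, and Atf3 is split between animal 4 at -0.13 and animals 5 and 6 at 1.02 and 0.90.

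Of the 13 member probe sets, 3 were lower in all 3 animals and 1 was higher in all 3, where 13.8% and 11.6% of all 15866 non-control probe sets were. In 2 of the 13 the ipsilateral group lay wholly below and in 1 wholly above the contralateral group, against 5.26% and 4.36% of all. Egr1, the brighter Fos probe set and Nr4a1 were lower with an unadjusted limma p under 0.05, as were 2.78% of tested probe sets, but this was not stable. Without animal 4 Egr1 and Nr4a1 remained under it, without animal 5 Fos alone and without animal 6 Egr1 alone, then joined by Ier2, and Nr4a1 was lost in the unpaired fit. Atf3, which was also under it and was 1 of the 3.57% of tested probe sets that were higher, is not counted, since it was tested through its high group and was lost without animal 5 and without animal 6, and in the fit of all probe sets with no filter. At an adjusted p under 0.05 there were 0 members and 0% of all. The members' median log2 difference was -0.14, against -0.013 over all non-control probe sets, and within animals 4, 5 and 6 it was -0.055, -0.21 and -0.023. The probe sets did not share a direction, and in each animal at least 5 of the 13 were higher. The 3 Jun, the Fos and the Jund probe sets each share a gene and are not separate observations. In bulk muscle, a smaller share of cells expressing a gene and less RNA per cell cannot be told apart.

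**Figure D3:**
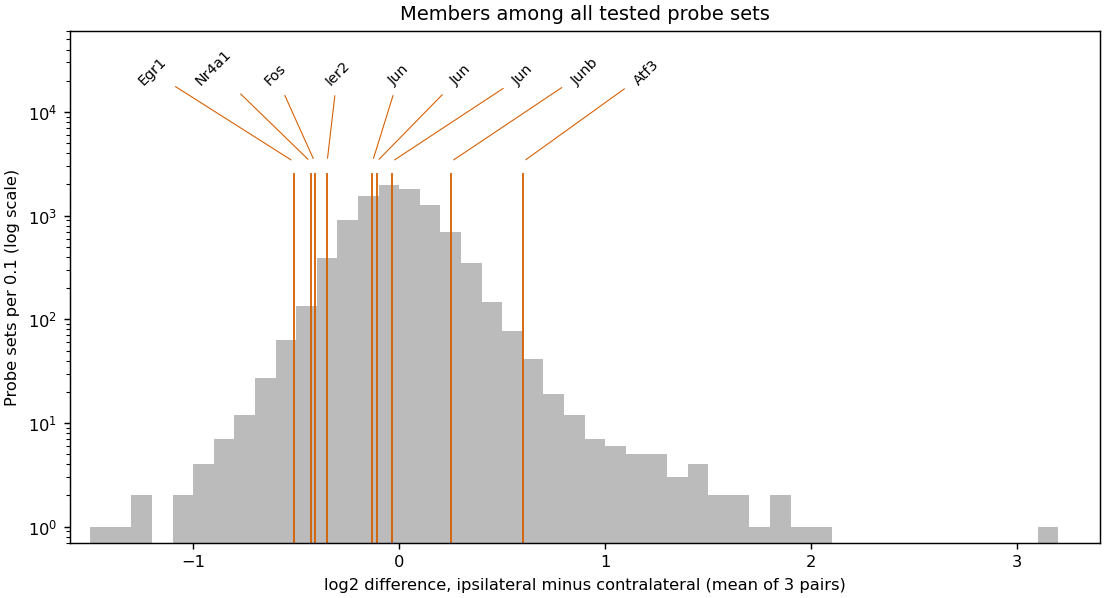
Number of tested probe sets (log axis, per 0.1 of log2 difference) by mean log2 difference of 3 pairs, ipsilateral minus contralateral, with an orange line for each of the 9 tested member probe sets. The members span -0.51 (Egr1) to 0.60 (Atf3), all within the range of the other probe sets.

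Members differed in how they varied over the 6 muscles. Among pairs of tested member probe sets, the highest correlation of log2 values was 0.839, of Egr1 and Nr4a1. The lowest was -0.909, of Junb and Ier2 (Pearson, description only, over 6 libraries that share 3 animals and their array scaling). These pairs were picked as the extremes. With dim probe sets included the highest was 0.936, of Nr4a1 and the Jund probe set 1387762_s_at. That probe set read only 2.5 to 9.3, so a high value here need not reflect shared expression. Among 8104 tested probe sets of other named genes, the 5 most like Egr1 were those of Slc48a1, Tnfaip2, Dnajc24, Rpsa and Coro1b, with r from 0.978 to 0.989, and 76 exceeded 0.9. The 5 most like the brighter Fos probe set were Myl9, Gramd1b, Elavl1, Spp1 and Nipsnap2, with r from 0.959 to 0.985, and 26 exceeded 0.9. Both lists hold the highest of 8104 values of r, each over 6 libraries and with the difference between the sides included. They are a description and not evidence of shared regulation.

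Other immediate early genes were measured beside the members. Of 54 measured genes of that list, 10 exceeded the contralateral value in all 3 animals and 5 fell short of it in all 3, against 11.6% and 13.8% of all probe sets. Their median log2 difference was 0.028, and 0 of the 39 tested passed the adjusted threshold (limma, lowest adjusted p 0.545; 2 higher and 1 lower at an unadjusted p under 0.05, against 3.57% and 2.78% of all tested). Ier3, an early gene that limits cell death, read 147, 220 and 106 contralaterally and 186, 444 and 163 ipsilaterally, a difference of 0.61 (SE 0.171), higher in each animal although the groups overlapped. Crem, a cyclic AMP-responsive factor with an inducible repressor form, read 91.7, 33.1 and 111 against 142, 121 and 116 with its brightest probe set, a difference of 0.70 (SE 0.242). Its other probe sets were too dim to be tested and gave 0.12 and 0.16, each with mixed signs. Zfp36l1, an RNA-binding decay factor, differed by 0.37 (SE 0.163) and Klf10, a TGF-beta-inducible Krüppel-like factor, by -0.38 (SE 0.161), both without overlap between the groups. The closest relatives of the members were dim or differed little. Egr3 differed by -0.096 (SE 0.185) and Fosl1 by 0.21 (SE 0.168), while Fosb, Fosl2, Egr2, Egr4, Nr4a2 and Nr4a3 lay below the filter. These 8 relatives were picked for kinship with the members after values had been seen. Dusp1, the phosphatase that ends MAP kinase signals, was picked likewise. It differed by -0.20 (SE 0.157) with the brighter of its 2 probe sets, the only one examined.

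Among kinases and factors upstream of these genes, 6 of 32 measured genes read lower in each animal and 0 read higher in each, against 13.8% and 11.6% of all probe sets, with a median of -0.0066 and 0 of 27 passing the adjusted threshold (limma, lowest adjusted p 0.671; 2 lower and 0 higher at an unadjusted p under 0.05, against 2.78% and 3.57%). The p38 kinase Mapk14 read 464, 382 and 343 contralaterally and 372, 264 and 292 ipsilaterally, a difference of -0.35 (SE 0.152). Its activator Map2k6 differed by -0.47 (SE 0.167), with -0.16, -0.76 and -0.48 in animals 4, 5 and 6. Rela, the p65 subunit of NF-kappaB, differed by -0.29 (SE 0.15) and the kinase Araf by -0.32 (SE 0.176), but a second probe set of Araf gave -0.068, with 0.26 in animal 4. Map2k1, a kinase of the ERK branch, differed by only -0.14 (SE 0.147) yet its groups did not overlap. Srf, the serum response factor itself, was picked after its values had been seen. The brighter of its 2 probe sets, the only one examined, had -0.55, 0.12 and 0.30 in the 3 animals, a mean of -0.044 (SE 0.19).

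Atf3 belongs to the integrated stress response, in which Atf4 is its usual inducer. Of 21 measured partners, 4 read lower in each animal and 2 read higher in each, near the 13.8% and 11.6% of all probe sets. The median was 0.025, and 0 of 19 tested passed the adjusted threshold (limma, lowest adjusted p 0.529; 3 lower and 0 higher at an unadjusted p under 0.05, against 2.78% and 3.57%). In the muscles where Atf3 read high, Atf4 read low, with 1974, 2220 and 1942 contralaterally and 2087, 1230 and 1089 ipsilaterally in animals 4, 5 and 6. Its difference was -0.53 (SE 0.19), with 0.08, -0.84 and -0.83 in the 3 animals, so that animal 4 again stood apart. The Atf4 target Chac1 differed by -0.82 (SE 0.218) and was lower in each animal. Cdkn1a, the cell cycle inhibitor p21, shared the split of Atf3. It read 311, 101 and 355 contralaterally and 155, 925 and 963 ipsilaterally with its brightest probe set, which gave -0.93, 3.01 and 1.40 in animals 4, 5 and 6 and a mean of 1.16 (SE 0.546). Its other probe set, too dim to be tested, was higher in all 3, by 0.83, 2.02 and 2.63. Hmox1, heme oxygenase, differed by -0.38 (SE 0.16) and the chaperone Hsph1 by -0.31 (SE 0.151), both without overlap.

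Among textbook target genes of AP-1, Egr1 and Myc, 6 of 30 measured genes read lower in each animal and 2 read higher in each, against 13.8% and 11.6% of all probe sets, with a median of -0.038 and 0 of 22 passing the adjusted threshold (limma, lowest adjusted p 0.333; 1 lower and 1 higher at an unadjusted p under 0.05, against 2.78% and 3.57%). Spp1, osteopontin, which was also among the genes most like Fos, read 96.5, 79.7 and 93.7 contralaterally and 35.5, 53.6 and 41.7 ipsilaterally. Timp1, a metalloproteinase inhibitor and AP-1 target, differed by -0.26 (SE 0.154) and Ldha, lactate dehydrogenase A, by -0.25 (SE 0.131), both without overlap. Fbl, the nucleolar methyltransferase fibrillarin, differed by -0.17 (SE 0.151). Tfrc, the transferrin receptor, went the other way, by 0.65 (SE 0.209), or by 1.10 (SE 0.265) with a second probe set, with a difference near 0 (0.00081) in animal 4 by the brighter one.

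**Figure D4:**
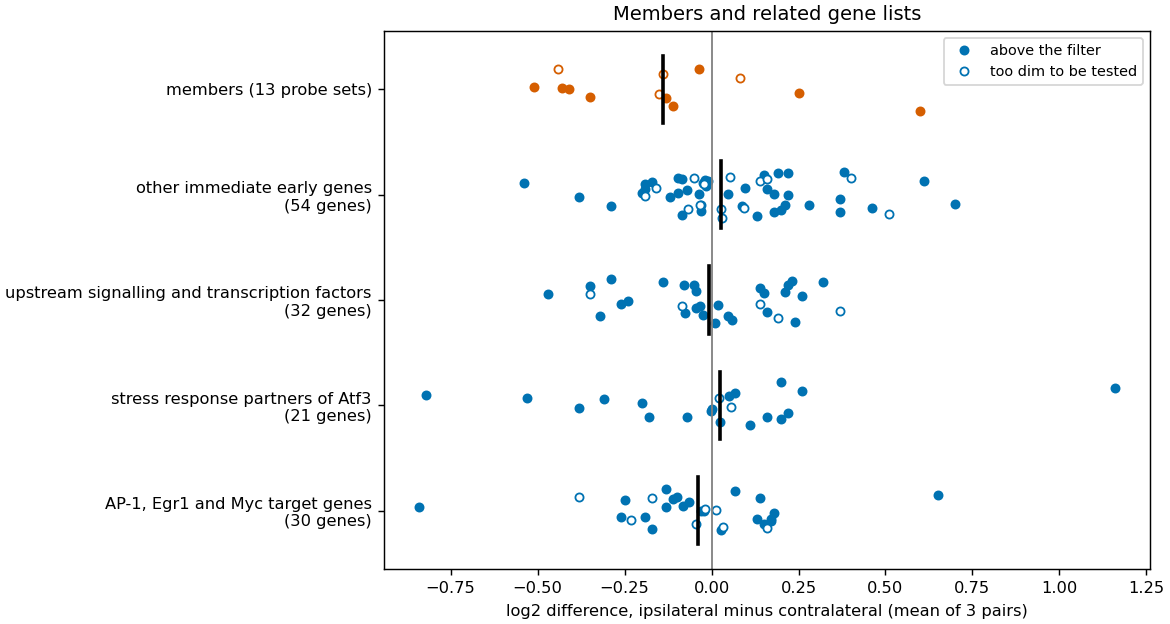
Log2 difference (mean of 3 pairs, ipsilateral minus contralateral) of the 13 member probe sets in orange and of the measured genes of 4 related lists in blue, 1 point each at the brightest probe set, open where too dim to be tested, with black bars at the medians. The list medians lie between -0.038 and 0.028, and that of the members is -0.14.

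The arrays were alike in median intensity, at 60.2 to 66.6, and the number of arrays limits the precision. The control probe sets of the Cre and bioD spikes were less alike. The Cre spike read 1117 and 1476 on the contralateral and ipsilateral arrays of animal 4, against 2481 to 3605 on the others. The bioD spike ran from 402.5 (ipsilateral 4) to 1419.6 (contralateral 6). All 8 muscle fibre markers were above the filter. Their summed intensity was 41982 to 46663 contralaterally and 33851 to 38232 ipsilaterally. Of these 8, 3 were lower and 1 was higher in all 3 animals, against 13.8% and 11.6% of all probe sets. Their median log2 differences in animals 4, 5 and 6 were -0.23, -0.49 and 0.026. The 8 measured immune cell markers, of which Itgam was below the filter, summed to 3882 to 4172 and 2729 to 3804. Beside the same shares, 4 of them were lower and 0 higher in all 3 animals. By mean difference 5 were lower and 3 higher, and their median in animal 4 was 0.011. The 6 endothelial markers summed to 822 to 930 and 918 to 1239, all with a mean difference above 0. Only Myod1, Vcam1 and Itga7 were measured of the satellite cell list (467 to 702 and 523 to 769) and only S100a8 and S100a9 of the neutrophil list, both below the filter. Adipocyte (5 genes, 1065 to 1685 and 1487 to 2396), fibroblast (7 genes, 9644 to 10919.9 and 9846 to 10827), Schwann cell (4 genes, 637 to 758 and 828 to 894) and erythroid markers (3 genes, 3458 to 3956 and 3086 to 3664) were also present, and no marker was at 0 on all arrays. Contralateral 4 and ipsilateral 6 had a ratio of the 3' to the middle beta-actin probe set of 2.77 and 2.87, against 1.36 to 1.68 on the other 4 arrays. The part of these markers, of the actin ratio and of the spikes in the values of Egr1, Fos, Nr4a1 and Atf3 was not tested.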

How the data were processed

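Total RNA of 6 tibialis anterior muscles was measured on 1 array each. The deposited table holds linear intensities, judged from the values themselves, and its mean without the lowest and highest 2% was 150 on every array. The submitters' software was not given in the sources used here, nor was its scaling step. Among 15923 probe sets, 57 were controls and were left out. A platform annotation gave 1 symbol for 12783 of the others, several for 312 and none for 2771, and names were updated by gene ID through a GRCr8 gene table (12748 found).

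Values were used as log2(intensity + 15.8), the 20th percentile of all values. The arrays' median log2 values lay within 0.115, under a limit of 0.2, so nothing was normalized further. Probe sets with a mean above the 40th percentile (5.86) were tested by lmFit and eBayes of limma 3.58.1 (R 4.3.3), using an intensity trend, in a model with a term per animal, p-values were adjusted by Benjamini-Hochberg over 9519 probe sets, leaving 2 residual degrees of freedom beside 7.47 from the prior. The procedure was tested on simulated data with normal noise of equal spread and with changes larger than that of any member. It therefore does not show how well changes of the members' size would be found. Dim members take their difference and SE from the same fit without the filter. Pairing comes from the design, since each animal gave both muscles. Deviations from group means correlated between an animal's muscles at -0.021, 0.0364 and 0.0889. The p-values rest only in part on the spread between these 3 animals, since the prior over all tested probe sets weighs more. For Egr1 the SE over the 3 animals alone was 0.0825, against 0.151 in the fit, and for Atf3 it was 0.364 against 0.234.

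Members and lists were chosen with earlier results of these data known. Named were all members, of each list up to 4 genes of smallest p and up to 4 more without overlap between groups, and the 5 genes most like Fos and Egr1. A planned comparison of protein sequences was not made. Alternatives covered the block, pseudocount, normalization, filter, variance prior, probe set choice and each animal left out, with the filter set anew in each. Plots were made in Python 3.11.15 with matplotlib 3.10.9.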

Additional observations from a re-analysis of the deposited data

How the results depend on the processing

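With 3 animals, 1 animal can decide a value, and no detection calls came with the intensities, so that low values have no error of their own. Leaving out 1 animal at a time moved the count of probe sets at an adjusted p under 0.05 (limma) from 0 to between 0 and 286, the latter without animal 4, and 0 passed in all settings with 3 animals. The count at an unadjusted p under 0.05 was 605, and 232 to 1514 with 1 animal left out (232 without animal 5, 384 without animal 6, 1514 without animal 4). Without the pairing (no replicate block) it was 564. The members' median difference of -0.14 ran from -0.26 (without animal 4) to -0.14 in those fits. With fewer animals to agree, 4 to 5 member probe sets were lower and 2 to 3 higher in all. After quantile normalization and with a common median, 0 member probe sets were higher in all 3 animals, Junb being the 1 lost. No member was near the adjusted threshold in the main fit (limma, lowest adjusted p 0.545), and most alternatives reuse all 6 arrays. Of 96 recomputed differences of single members, 92 kept their direction and their side of the threshold, the unpaired fit included. In 1, Atf3 without animal 4, the adjusted p passed, at 0.032. The 3 that reversed were Jun probe sets with 1 animal left out, with ranges over the omissions of -0.20 to 0.0033 for 1389528_s_at and -0.35 to 0.19 for 1374404_at (highest without animal 5) and of -0.20 to 0.22 for 1369788_s_at (highest without animal 4). The cause of these changes beyond the fewer animals was not tested. The stricter filter left Junb, Atf3 and Ier2 untested.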
